A study of Rattus norvegicus with 2 samples.

Results

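Levels of 10 secreted or intracellular modulators of Wnt signalling were followed across the cell groups of cultured rat optic nerve cells: Rspo1, Rspo3, Sfrp1, Sfrp2, Sfrp4, Wif1, Dkk2, Dkk3, Nkd2 and Axin2. They were chosen by symbol, with earlier results of these data known, and all 10 are among the 25399 genes listed for both libraries. The experiment compared 1 library from WT (Sprague Dawley) rats with 1 library from Nuc1 rats, which carry a spontaneous insertion mutation in Cryba1, the gene of βA3/A1-crystallin. Both were mixed primary cultures from the optic nerve, labelled postnatal day 7, sequenced with a droplet-based 3′ kit. The number of animals behind each library is not given in the sources used here.

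Wnt ligands bind Frizzled and LRP receptors at the cell surface and stabilise β-catenin, which then acts with TCF and LEF factors in the nucleus. R-spondins strengthen this response by keeping receptors at the surface. Secreted Frizzled-related proteins, Wif1 and Dkk2 bind the ligands or the co-receptors outside the cell. Axin2 and Nkd2 act inside the cell as negative feedback. In the meninges and other connective tissue, fibroblasts are known sources of several of these secreted proteins.

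A total of 1961 WT and 1780 Nuc1 cells were kept, with medians of 14050 and 16567.5 UMIs (unique molecular identifiers, each 1 captured transcript) per cell. A level in CPM is a gene's UMI sum scaled to 1000000 UMIs of the same cells. Because the kit reads transcript ends, levels were compared between groups and not between genes. With 1 library per genotype there is no replicate and no test. The 95% intervals (exact Poisson for a level, exact conditional for a ratio, Clopper-Pearson for a share of cells) cover counting error only. Cryba1 had 0 UMIs in both libraries, so the genotype labels could not be checked on it. The Y-linked gene Eif2s3y gave 3 UMIs over WT cells and 896 over Nuc1 cells, so the mix of sexes and the genotype cannot be told apart in any difference given here. The libraries shared 2 cell barcodes.

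Cells were grouped into 10 clusters without use of the members or other Wnt genes. Clusters 0, 1, 2, 4 and 5 were rich in fibroblast markers (Col1a1, Col1a2, Col3a1, Dcn, Lum, Pdgfra), and are called collagen-rich here. They held 1741 WT and 1260 Nuc1 cells. Cluster 0 was led by Igfbp5, Shisa3 and Cpxm2, cluster 1 by Thbd, Shisa3 and Cldn11, and cluster 2 by Actg2, Penk and S100a6. Cluster 4 was led by Inmt, Cyp26b1 and Gjb2, and cluster 5 by genes of dividing cells. They were left unnamed as fibroblast types, since arachnoid or leptomeningeal markers stood among the leading genes of clusters 1 and 4. Cluster 3 was astrocyte-like (Gfap, Fabp7, Aqp4; 106 WT and 343 Nuc1 cells), cluster 6 motile-cilia-like (14 and 111 cells) and cluster 9 macrophage- and microglia-like (27 and 25 cells). Clusters 7 (49 and 10 cells) and 8 (24 and 31 cells, led by Ttr, Gldn and Fbln2) carry numbers only.

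Collagen-rich cells were mixed differently in the 2 libraries. There were 53 WT and 367 Nuc1 cells in cluster 4, 522 and 190 in cluster 2, 579 and 338 in cluster 0, 443 and 290 in cluster 1, and 144 and 75 in cluster 5. When the libraries were merged without integration, 1 cluster held 988 WT and 2 Nuc1 cells and another held 8 WT and 714 Nuc1 cells, both mostly cells of clusters 0 and 1. The cluster of 714 Nuc1 cells also held 94 cells of cluster 2, and 586 cluster 2 cells fell in a cluster of 549 WT and 91 Nuc1 cells. The WT and Nuc1 cells of clusters 0 and 1, and part of those of cluster 2, were therefore paired by the integration. Summed fibroblast markers in the collagen-rich clusters came to 11217.5 CPM in WT and 6898 CPM in Nuc1 cells, and Col1a1 to 5342 and 2757 CPM, a log2 ratio of Nuc1 over WT of -0.95 (-0.97 to -0.94). Their part in the differences of the members was not tested.

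Promoter sequences are shown for 3 members: Axin2, because its transcription is a widely used readout of β-catenin activity, and Rspo3 and Nkd2, which were highest in collagen-rich clusters and lower in Nuc1 cells. Each runs over the 250 bases before the start site, on the + strand of GRCr8 (RefSeq), at chr10:94398535-94398784, chr1:30112279-30112528 and chr1:31272282-31272531. Capitals mark CTTTGA or CTTTGT, the core letters that TCF and LEF factors read, searched on both strands.
Axin2: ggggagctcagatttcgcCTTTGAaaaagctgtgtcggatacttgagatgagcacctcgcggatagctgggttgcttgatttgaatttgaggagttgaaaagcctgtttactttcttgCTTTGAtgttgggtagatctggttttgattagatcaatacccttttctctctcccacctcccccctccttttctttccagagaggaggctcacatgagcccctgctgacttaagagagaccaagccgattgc
Rspo3: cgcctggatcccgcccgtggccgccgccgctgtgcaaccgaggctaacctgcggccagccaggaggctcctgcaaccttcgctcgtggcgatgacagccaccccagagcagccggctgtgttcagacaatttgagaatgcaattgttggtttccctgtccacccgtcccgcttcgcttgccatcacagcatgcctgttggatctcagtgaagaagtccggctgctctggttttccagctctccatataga
Nkd2: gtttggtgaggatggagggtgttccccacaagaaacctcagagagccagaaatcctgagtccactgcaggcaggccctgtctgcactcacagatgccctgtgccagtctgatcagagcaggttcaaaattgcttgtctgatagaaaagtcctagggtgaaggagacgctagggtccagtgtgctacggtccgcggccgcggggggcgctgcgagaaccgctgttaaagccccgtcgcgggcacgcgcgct
Axin2 held 2 matches, which begin 232 and 132 bases before the start site. Among the 6 members with a listed promoter (also Rspo1, Sfrp2 and Wif1), Axin2 was the 1 with a match in the 300 bases from 250 before to 50 after the start. Of all 33469 listed promoters of that length, 31.4% held at least 1 match, so the presence of these letters is common. The promoters of Sfrp1, Sfrp4, Dkk2 and Dkk3 were not analysed here.

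Across the cell groups, 5 of the 10 members had their highest CPM in a collagen-rich cluster in both libraries: Rspo3, Sfrp4, Dkk2, Nkd2 and Dkk3. Of the 10 clusters 5 are collagen-rich, and the share of all genes highest in them was not computed. The count is therefore a description and not a trait of the members. Rspo1 was highest in cluster 9 in both libraries, at 41.1 and 49.2 CPM on 10 and 4 UMIs. Sfrp2 was highest in cluster 8 and almost missing from collagen-rich cells, Sfrp1 was highest in cluster 4 in WT and in cluster 8 in Nuc1 cells, and Axin2 was spread over collagen-rich, astrocyte-like and cluster 8 cells. Compared with astrocyte-like cells, 8 members could be read in the WT library (at least 100 UMIs over both groups), and 5 of them were at least 2-fold higher in collagen-rich cells and 1 was at least 2-fold lower. Among all genes read in that comparison, 18.4% were 2-fold higher and 11.6% 2-fold lower. In the Nuc1 library 4 of 7 members were 2-fold higher and 0 lower, against 23.0% and 12.0% of all genes.

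**Figure D1:**
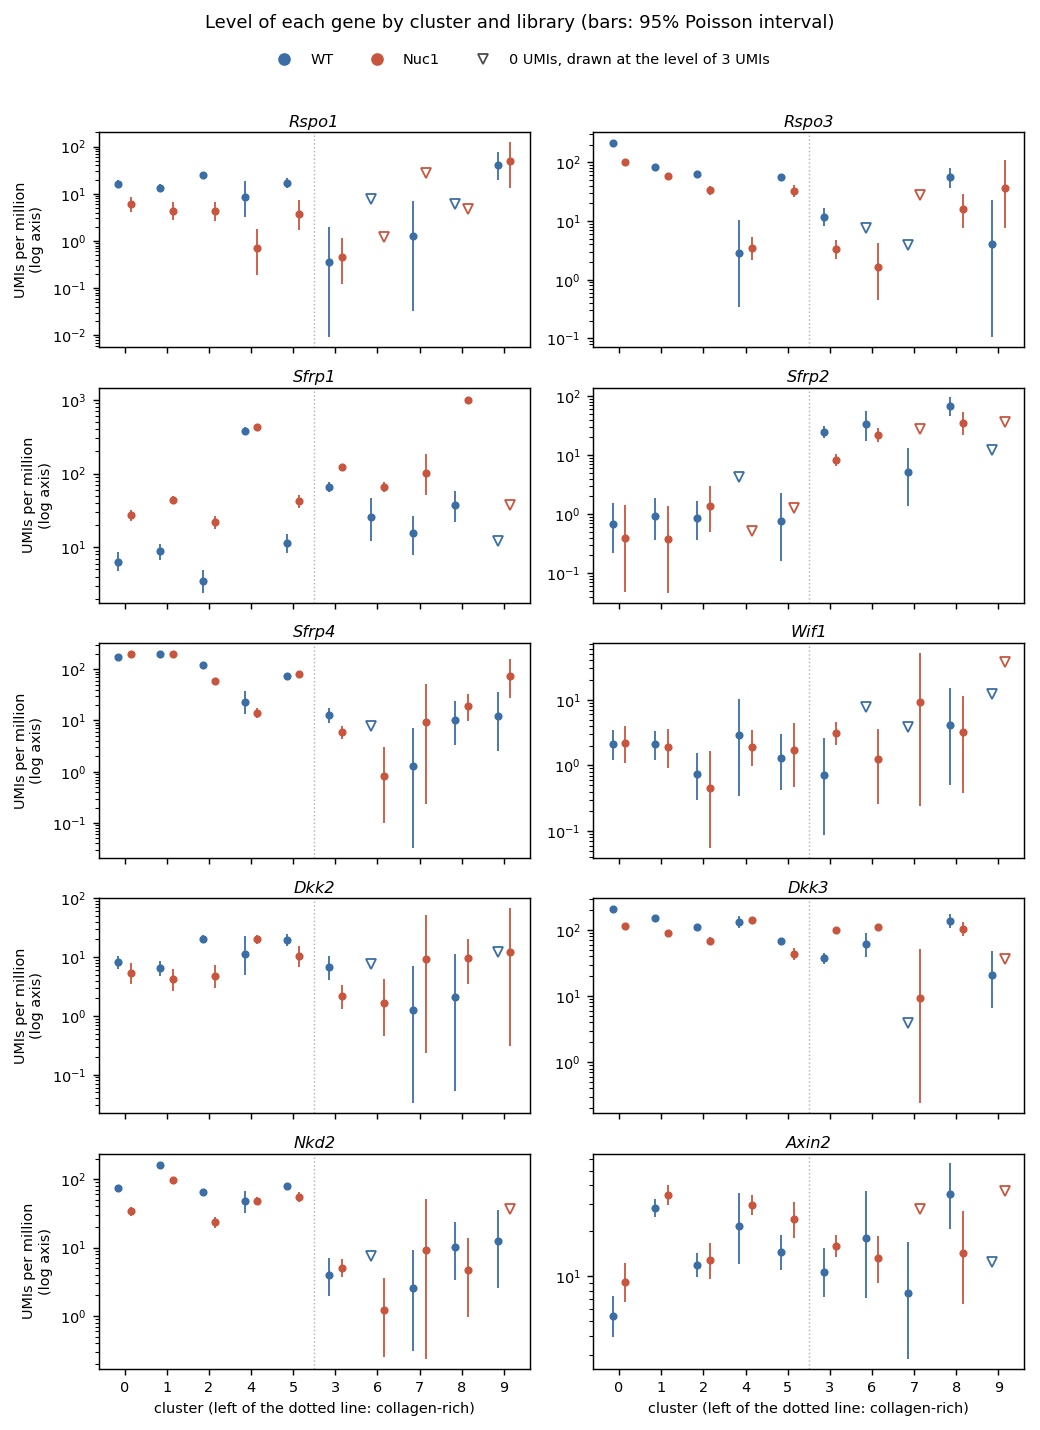
CPM of each member (log axis) in the 10 clusters of the WT (blue) and Nuc1 (red) library, with exact Poisson 95% intervals; open triangles mark 0 UMIs and stand at the level of 3 UMIs, and the dotted line parts collagen-rich clusters from the others. Rspo3, Sfrp4 and Nkd2 stand highest to the left of the line, Sfrp2 to its right, and Sfrp1 stands highest in cluster 4 in WT (383 CPM) and in cluster 8 in Nuc1 cells (1004 CPM).

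Rspo3 (ENSRNOG00000011568), an R-spondin ligand of the LGR receptors, was highest in cluster 0. Its level was 213 CPM in WT and 101 CPM in Nuc1 cells of cluster 0, 83.0 and 58.7 CPM in cluster 1, 63.4 and 33.2 CPM in cluster 2, and 55.3 and 32.3 CPM in cluster 5. In cluster 4 it came to 2.87 and 3.51 CPM, so that this collagen-rich cluster was set apart from the other 4 in both libraries. In the WT library the order was cluster 0 above 1 above 2, while clusters 2, 8 and 5, next in order, could not be told apart beyond counting error. In the Nuc1 library cluster 0 was again above cluster 1, and clusters 2 and 5 could not be told apart. The Nuc1 level was lower in each of clusters 0, 1, 2 and 5, with log2 ratios of -1.07 (-1.22 to -0.93), -0.50 (-0.70 to -0.30), -0.93 (-1.20 to -0.67) and -0.78 (-1.17 to -0.39).

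Over all collagen-rich cells Rspo3 had 3039 UMIs (104 CPM) in WT and 1055 UMIs (46.5 CPM) in Nuc1 cells, with a log2 ratio of -1.17 (-1.27 to -1.06). A UMI was seen in 62.7% of WT and 35.9% of Nuc1 collagen-rich cells. The difference in share was still there after each cell had been thinned to 10000 UMIs, at 50.4% and 26.7% of the 1489 and 1090 cells that deep. Both pairs of shares include cluster 4, which nearly lacked Rspo3 and held 53 WT and 367 Nuc1 cells. Without cluster 4 a UMI was seen in 64.6% of 1688 WT and 49.0% of 893 Nuc1 cells, and the log2 ratio was -0.81. In cluster 9, whose cells should lack Rspo3, 3.70% and 12.0% of cells had a UMI, at median depths of 7686 and 2003 UMIs. Astrocyte-like cells held 11.8 CPM in WT and 3.33 CPM in Nuc1 cells, with a UMI in 14.2% and 6.12% of cells.

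Rspo1 (ENSRNOG00000009656), another R-spondin, was a low-count gene with the same direction. It gave 25.0 CPM in WT and 4.32 CPM in Nuc1 cells of cluster 2, 16.4 and 5.98 CPM in cluster 0, and 13.5 and 4.41 CPM in cluster 1. Among the collagen-rich clusters cluster 2 was highest in the WT library, whereas in Nuc1 cells no neighbours in the order of clusters 0, 1, 2 and 5 could be told apart, and cluster 5 was above cluster 4. The log2 ratio of Nuc1 over WT lay below 0 in all 5 collagen-rich clusters, from -1.46 (-2.08 to -0.87) in cluster 0 to -3.62 (-5.89 to -1.54) in cluster 4, the last on 6 and 4 UMIs. Pooled, 533 UMIs (18.3 CPM) stood against 85 UMIs (3.75 CPM), a log2 ratio of -2.29 (-2.64 to -1.96). A UMI was found in 19.4% of WT and 5.08% of Nuc1 collagen-rich cells, and in 0.943% and 1.17% of astrocyte-like cells. In cluster 9, Rspo1 gave 10 UMIs in 6 of 27 WT cells and 4 UMIs in 1 of 25 Nuc1 cells, so this group cannot serve as its background.

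Sfrp1 (ENSRNOG00000017783), a secreted Frizzled-related protein that binds Wnt ligands, was the member with the largest pooled difference. Over collagen-rich cells it had 459 UMIs (15.8 CPM) in WT and 3001 UMIs (132 CPM) in Nuc1 cells, 8.39-fold higher, with a log2 ratio of 3.07 (2.93 to 3.21). Most of its UMIs came from cluster 4, where the level was 383 CPM in WT and 428 CPM in Nuc1 cells and the log2 ratio 0.16 (-0.02 to 0.35). In that cluster 81.1% of WT and 87.2% of Nuc1 cells had a UMI, at median depths of 12671 and 14551 UMIs. In the shallower cluster 9, with medians of 7686 and 2003 UMIs, 0 of 27 and 0 of 25 cells had one. With the CPM of each collagen-rich cluster weighted equally, a mean in which cluster 4 has the largest level, the log2 ratio was 0.45.

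Outside cluster 4, Sfrp1 was low but still differed. Clusters 0, 1, 2 and 5 held 6.41, 8.76, 3.51 and 11.4 CPM in WT and 27.3, 43.9, 22.1 and 42.1 CPM in Nuc1 cells. The Nuc1 level was above the WT level in each, with log2 ratios of 2.09 (1.61 to 2.60), 2.33 (1.93 to 2.74), 2.65 (2.07 to 3.27) and 1.89 (1.36 to 2.43). Together these 4 clusters gave 192 UMIs in WT and 562 in Nuc1 cells, with a log2 ratio of 2.29 (2.05 to 2.54), and a UMI was seen in 97 of 1688 (5.75%) and 210 of 893 (23.5%) cells.

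The 10 leading genes of cluster 4 were set beside Sfrp1 in the same 4 clusters, because the Nuc1 library held more cluster 4 cells. Of these 10 genes, 9 had a log2 ratio above 0 and 1 (Aebp1, -0.29) below it, with a median of 1.46. Inmt, a methyltransferase, and Apod, a lipid carrier, gave 4.40 and 4.28, beyond the 2.29 of Sfrp1, while Gjb2, a gap junction protein, gave 1.19. The 10 genes were picked on UMIs of both libraries summed, most of them from Nuc1 cells. This choice favours genes that are higher in the Nuc1 library. Within cluster 4 the 10 genes were higher in Nuc1 than in WT cells as well. Inmt gave 108 CPM in WT and 1030 CPM in Nuc1 cells there, and Sfrp1 gave 383 and 428 CPM. The share of all genes above 0 in the 4 clusters was not computed, so 9 of 10 is a description. As a percentage of its own level in cluster 4, Sfrp1 stood in the 4 clusters at 1.76% in WT and 7.74% in Nuc1 cells, where the 10 genes had medians of 9.48% and 9.85%. The part of RNA or cells of cluster 4 in the Sfrp1 difference was not tested.

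**Figure D2:**
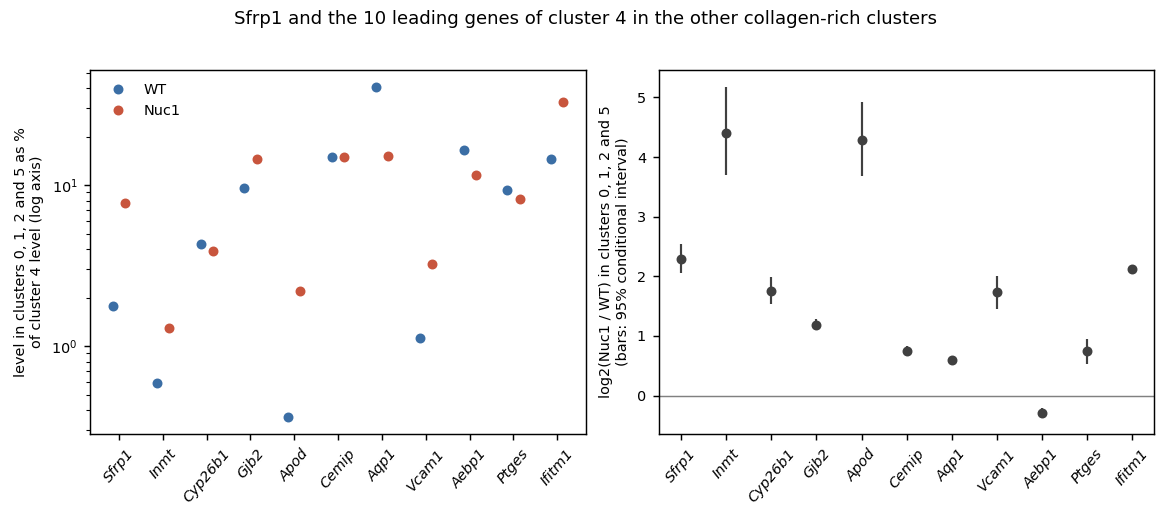
Left, the level of Sfrp1 and of the 10 leading genes of cluster 4 in clusters 0, 1, 2 and 5, as a percentage of the level in cluster 4 of the same library (log axis, WT blue, Nuc1 red). Right, the log2 ratio of Nuc1 over WT of the same genes in clusters 0, 1, 2 and 5 with exact conditional 95% intervals; 9 of the 10 genes lie above 0, as does Sfrp1 at 2.29. The 10 genes were picked on UMIs of both libraries summed, most of them from Nuc1 cells.

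Sfrp1 was also found outside the collagen-rich clusters. Astrocyte-like cells held 66.0 CPM in WT and 125 CPM in Nuc1 cells, with a log2 ratio of 0.92 (0.69 to 1.15), with a UMI in 46.2% and 53.4% of cells. In cluster 8 the level was 37.1 CPM (18 UMIs) in WT and 1004 CPM (632 UMIs) in Nuc1 cells, with a log2 ratio of 4.76 (4.09 to 5.52). Of the 632 UMIs, 371 came from 5 of the 31 cells, and the other 26 cells still held 510 CPM (450 to 576). The order in the WT library was cluster 4 above astrocyte-like cells above all others, and in the Nuc1 library cluster 8 above cluster 4 above the astrocyte-like cells.

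Sfrp2 (ENSRNOG00000009465), a close relative of Sfrp1, was highest outside the collagen-rich clusters. In collagen-rich cells it gave 23 UMIs (0.790 CPM) in WT and 10 UMIs (0.441 CPM) in Nuc1 cells, with a UMI in 0.689% and 0.397% of cells. Cluster 8 held 68.0 and 34.9 CPM, motile-cilia-like cells 33.1 and 22.2 CPM, and astrocyte-like cells 24.6 and 8.26 CPM. These 3 groups were the highest in both libraries. In astrocyte-like cells the 69 UMIs of WT and 72 UMIs of Nuc1 cells gave a log2 ratio of -1.57 (-2.07 to -1.08), with a UMI in 25.5% and 12.2% of cells. The ratio was -0.96 (-1.81 to -0.14) in cluster 8 and -0.58 (-1.47 to 0.42) in motile-cilia-like cells.

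Sfrp4 (ENSRNOG00000054957), the remaining Frizzled-related member, was highest in clusters 1 and 0. Cluster 1 held 196 CPM in WT and 198 CPM in Nuc1 cells, and cluster 0 held 173 and 194 CPM. Cluster 2 was the exception, with 118 and 58.9 CPM and a log2 ratio of -1.0 (-1.20 to -0.80), against 0.16 (0.04 to 0.28) in cluster 0 and 0.01 (-0.10 to 0.13) in cluster 1. Cluster 4 held 23.0 and 14 CPM, the lowest of the collagen-rich clusters in both libraries. The pooled log2 ratio was -0.37 (-0.44 to -0.30), from 144 and 112 CPM, and without cluster 4 it was -0.03 (-0.10 to 0.04). A UMI was found in 72.8% of WT and 52.1% of Nuc1 collagen-rich cells, and in 7.41% and 20% of cluster 9 cells. Without cluster 4 the collagen-rich shares were 74.5% and 67.2%.

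Wif1 (ENSRNOG00000004476), a secreted Wnt inhibitor, was barely detected. Over collagen-rich cells it gave 46 UMIs (1.58 CPM) in WT and 38 UMIs (1.68 CPM) in Nuc1 cells, with a log2 ratio of 0.08 (-0.58 to 0.74). Astrocyte-like cells gave 2 and 27 UMIs, or 0.713 and 3.1 CPM, a log2 ratio of 2.12 (0.13 to 5.24) whose interval is wide. No neighbouring clusters in its order could be told apart in either library.

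Dkk3 (ENSRNOG00000016343), a divergent Dickkopf protein, was found in collagen-rich and glial groups alike. Clusters 0, 1, 2 and 5 held 205, 154, 112 and 67.2 CPM in WT and 116, 91.7, 69.4 and 43.8 CPM in Nuc1 cells. Each Nuc1 level was lower, with log2 ratios from -0.82 (-0.96 to -0.68) in cluster 0 to -0.62 (-0.96 to -0.28) in cluster 5. Cluster 4 did not follow, at 133 and 141 CPM and 0.08 (-0.24 to 0.40). Pooled, the collagen-rich cells held 142 and 100.1 CPM, a log2 ratio of -0.50 (-0.57 to -0.43).

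In astrocyte-like cells Dkk3 went the other way, with 37.1 CPM (104 UMIs) in WT and 99.5 CPM (867 UMIs) in Nuc1 cells, with a log2 ratio of 1.42 (1.13 to 1.73). A UMI was found in 42.5% and 72.0% of these cells, in 18.1% and 51.1% of those that could be thinned to 10000 UMIs, and in 11.1% and 0 of the cluster 9 cells. A stricter limit of 10% on mitochondrial UMIs kept 38 astrocyte-like cells of the WT and 182 of the Nuc1 library and gave a log2 ratio of 0.77 (0.30 to 1.28). Without the 17 WT and 61 Nuc1 cells that held over 300 CPM of fibroblast markers it was 1.64 (1.27 to 2.02). Motile-cilia-like cells showed the same direction, at 61.1 and 110 CPM and 0.85 (0.25 to 1.52). The astrocyte-like level was thus 26.2% of the collagen-rich level in WT and 99.4% in Nuc1 cells.

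Dkk2 (ENSRNOG00000011360), which binds the LRP co-receptors, was a low-count gene highest in clusters 2 and 5 of the WT library, at 20.3 and 19.9 CPM. In Nuc1 cells those clusters held 4.78 and 10.6 CPM, and cluster 4 led with 19.99 CPM against 11.5 CPM in WT cells. The log2 ratio was -2.09 (-2.81 to -1.43) in cluster 2 and -0.90 (-1.62 to -0.24) in cluster 5, and the intervals of clusters 0, 1 and 4 included 0. Pooled it was -0.53 (-0.78 to -0.28), and without cluster 4 it was -1.25 (-1.59 to -0.93).

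Nkd2 (ENSRNOG00000016103), which binds Dishevelled, was highest in cluster 1, with 162 CPM in WT and 98.0 CPM in Nuc1 cells. Clusters 0, 2 and 5 held 75.4, 64.6 and 79.9 CPM in WT and 34.3, 23.4 and 55.7 CPM in Nuc1 cells. The Nuc1 level was lower in these 4 clusters, with log2 ratios of -0.72 (-0.87 to -0.57) in cluster 1, -1.14 (-1.39 to -0.89) in cluster 0, -1.46 (-1.78 to -1.16) in cluster 2 and -0.52 (-0.83 to -0.22) in cluster 5. Cluster 4 held 47.3 and 48.4 CPM, a log2 ratio of 0.03 (-0.49 to 0.60). Pooled, 94.5 and 52.6 CPM gave -0.85 (-0.94 to -0.75), and a UMI was found in 54.8% of WT and 39.3% of Nuc1 cells.

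Axin2 (ENSRNOG00000055010), the scaffold protein whose gene is itself induced by β-catenin, was the feedback gene that did not share the direction of Nkd2. It was highest among the collagen-rich clusters in cluster 1, at 28.4 CPM in WT and 34.5 CPM in Nuc1 cells, and lowest in cluster 0, at 5.47 and 9.17 CPM. All 5 collagen-rich clusters had a log2 ratio above 0, but the interval lay above 0 only in cluster 0, at 0.74 (0.10 to 1.39), and in cluster 5, at 0.72 (0.16 to 1.28). Pooled, 441 UMIs in WT and 507 UMIs in Nuc1 cells gave 0.56 (0.37 to 0.75), under 2-fold. Astrocyte-like cells held 10.7 and 15.8 CPM, a log2 ratio of 0.57 (-0.01 to 1.19), and cluster 8 held 35 and 14.3 CPM, a ratio of -1.29 (-2.64 to -0.05). A UMI was found in 16.6% and 26.0% of collagen-rich cells, 21.7% and 30.3% of astrocyte-like cells, and 0 of 27 and 0 of 25 cluster 9 cells.

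**Figure D3:**
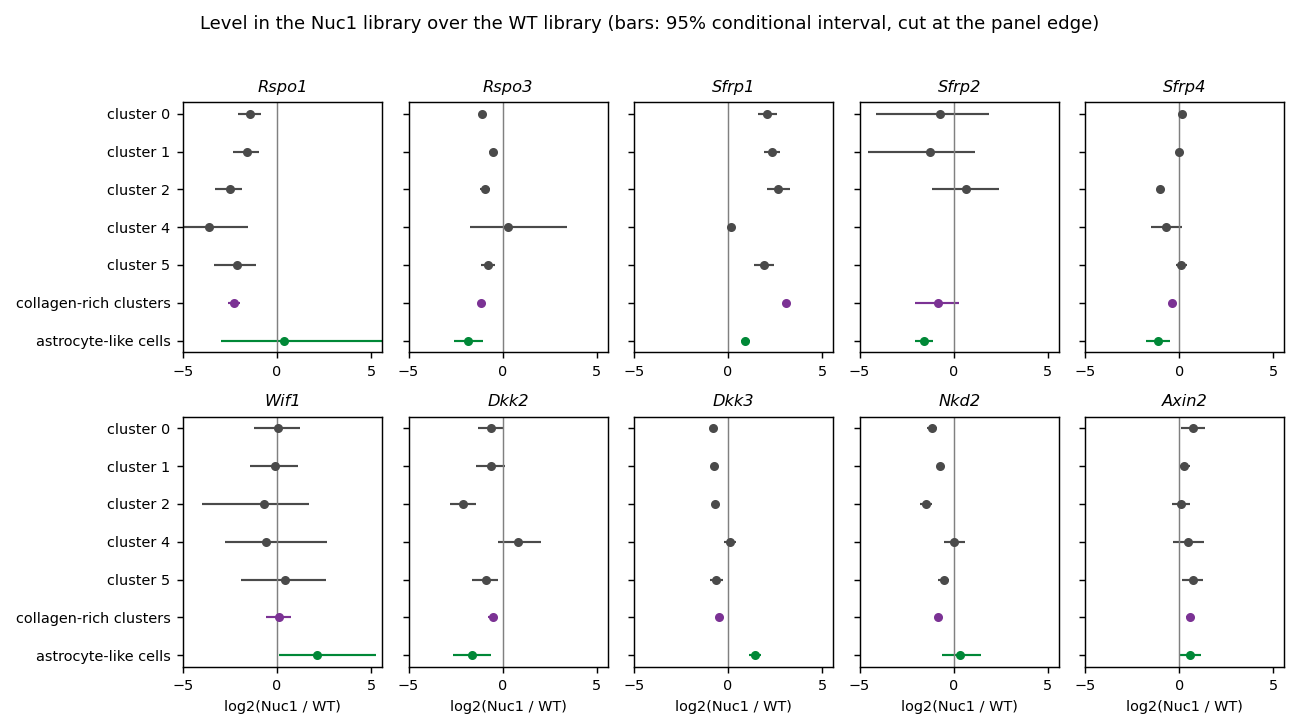
Log2 ratio of Nuc1 over WT of each member in the 5 collagen-rich clusters, over these clusters together and in astrocyte-like cells, with exact conditional 95% intervals; bars are cut at the panel edge and a ratio with a sum of 0 is not drawn. Rspo1, Rspo3 and Nkd2 lie below 0 over the collagen-rich clusters at -2.29, -1.17 and -0.85, Sfrp1 above it at 3.07, and Dkk3 changes side between collagen-rich (-0.50) and astrocyte-like cells (1.42).

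Of the 8 members with at least 100 UMIs over collagen-rich cells, 1 (Sfrp1) was at least 2-fold higher in the Nuc1 library and 2 (Rspo1 and Rspo3) at least 2-fold lower. Over all genes read there, 4.45% were 2-fold higher and 3.78% 2-fold lower. The interval lay above 0 for 2 of the 8 and below it for 6, against 32.7% and 28.1% of all genes. The members had a median log2 ratio of -0.51 and all genes one of 0.02. Which members passed 2-fold depended on cluster 4. Without that cluster the log2 ratio was -0.81 for Rspo3, under 2-fold, and -1.25 for Dkk2, past it. The share of all genes past 2-fold without cluster 4 was not computed. Within single clusters the counts 2-fold higher and lower were 1 and 3 of 6 members in cluster 0 (all genes 2.04% and 4.11%), 1 and 1 of 7 in cluster 1 (1.96% and 3.54%), 1 and 4 of 8 in cluster 2 (1.49% and 3.95%) and 1 and 0 of 7 in cluster 5 (1.23% and 2.52%). In cluster 4, 0 of 5 members passed 2-fold in either direction (3.93% and 2.23% of all genes), and their median log2 ratio was 0.16. In astrocyte-like cells 1 of 4 members was 2-fold higher and 1 lower, against 1.80% and 3.91% of all genes. Because the members were chosen with earlier results of these data known, these counts and medians are descriptions.

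The levels in astrocyte-like cells were set against fibroblast markers, which those cells should lack. Col1a1, Col3a1, Dcn and Lum stood in astrocyte-like cells at 3.63% to 4.84% of the collagen-rich level in WT and at 4.86% to 8.41% in Nuc1 cells. Rspo1 (1.95% and 12.3%), Rspo3 (11.3% and 7.16%), Sfrp4 (8.89% and 5.25%) and Nkd2 (4.15% and 9.60%) lay nearest to that range. In WT cells Rspo3 (7.76% to 15.8%) and Sfrp4 (6.23% to 12.3%) stood above it beyond counting error, while in Nuc1 cells both lay within it. Without the astrocyte-like cells rich in fibroblast markers, the log2 ratio of collagen-rich over astrocyte-like cells moved from 4.59 to 6.75 for Nkd2, from 3.49 to 6.04 for Sfrp4 and from 3.15 to 5.09 for Rspo3 in the WT library. Axin2 (70.6% and 70.9%), Dkk2 (51.0% and 23.7%), Dkk3 (26.2% and 99.4%), Sfrp1 (418% and 94.2%) and Sfrp2 (3114% and 1874%) stood above the marker range in both libraries, as did Wif1 (45.1% and 185%, on 2 and 27 UMIs in astrocyte-like cells).

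**Figure D4:**
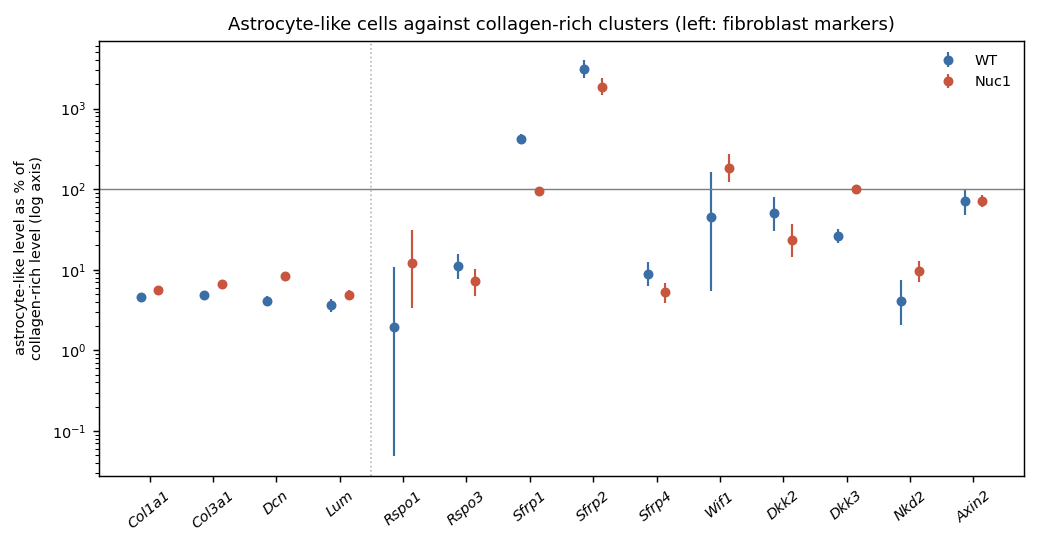
CPM in astrocyte-like cells as a percentage of the CPM in collagen-rich clusters (log axis) in the WT (blue) and Nuc1 (red) library, for 4 fibroblast markers and the 10 members. The markers lie between 3.63% and 8.41%, Rspo3, Sfrp4 and Nkd2 between 4.15% and 11.3%, and Sfrp2 far above at 3114% and 1874%.

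The other genes of the pathway, 70 in the files, were read by role. Counting intervals that exclude 0 were common over collagen-rich cells, 32.7% of all genes read having one above 0 and 28.1% one below it, so the interval counts of small lists are given as descriptions against that background. Of 7 Wnt ligands with at least 100 UMIs over collagen-rich cells, 5 had an interval above 0 and 2 below it. Wnt6 was highest in cluster 4, at 27.3 CPM in WT and 58.2 CPM in Nuc1 cells, where Wnt4 stood at 25.8 and 87.1 CPM, against 33.1 and 29.6 CPM in motile-cilia-like cells. Over collagen-rich cells Wnt4 and Wnt6 gave log2 ratios of 3.61 (3.21 to 4.03) and 3.49 (3.04 to 3.97). Wnt16, named after its values were seen, went the other way, at 31.1 and 4.5 CPM and -2.79 (-3.10 to -2.49). Wnt7a was highest in astrocyte-like cells, at 54.9 and 47.6 CPM. Wls, which carries Wnt ligands to the surface, gave 132 and 87.6 CPM over collagen-rich cells and -0.59 (-0.67 to -0.51), and Porcn, which acylates them, was highest in astrocyte-like cells at 23.9 and 42.7 CPM.

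Of 11 receptors read, 2 had an interval above 0 and 5 below it. Fzd1 gave 150.4 and 66.2 CPM, a log2 ratio of -1.18 (-1.27 to -1.10), Fzd2 gave 121 and 126 CPM and 0.06 (-0.01 to 0.13), and Ror2, highest in cluster 4, gave 6.70 and 23.2 CPM and 1.79 (1.55 to 2.03). Of the R-spondin axis 2 genes could be read. Rspo2, a relative of the R-spondin members, was highest in cluster 0 and gave 34.0 and 15.8 CPM, a log2 ratio of -1.10 (-1.28 to -0.93), the direction of Rspo1 and Rspo3. Their receptor gene Lgr4 gave 11.1 and 10.2 CPM and -0.13 (-0.38 to 0.12).

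Of 4 other inhibitors, 2 had an interval above 0 and 2 below it. Frzb and Apcdd1 were highest in cluster 4, as Sfrp1 was among the collagen-rich clusters, and gave 1.16 (1.01 to 1.31) and 1.72 (1.47 to 1.98) over collagen-rich cells. Within 3 collagen-rich clusters Frzb hardly differed, at 125 CPM in WT and 113 CPM in Nuc1 cells of cluster 4, 13.0 and 12.4 CPM in cluster 0, and 30.5 and 29.7 CPM in cluster 1. In cluster 8 Frzb was lower in Nuc1 cells, at 107 CPM in WT and 14.3 CPM in Nuc1 cells. Apcdd1 was lower in Nuc1 cells of cluster 0, at 3.87 and 0.996 CPM, and of cluster 1, at 4.97 and 2.30 CPM. Sostdc1 gave 26.8 CPM in WT and 305 CPM in Nuc1 cells of cluster 8, the group where Sfrp1 also differed most, and 4.09 and 1.28 CPM in collagen-rich cells.

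Of the 10 intracellular genes read 0 passed 2-fold in either direction, against 4.45% and 3.78% of all genes, 2 having an interval above 0 and 2 below it. Csnk1a1 was highest in astrocyte-like cells, at 519 CPM in WT and 416 CPM in Nuc1 cells. Apc and Gsk3b were highest in cluster 7 with both libraries summed, at 128 and 99.3 CPM, but in Nuc1 cells Apc gave 46.8 CPM there and 80.6 CPM in motile-cilia-like cells. Of 6 nuclear genes, 3 had an interval above 0 and 2 below it. Tcf7l2 gave 102 and 88.5 CPM over collagen-rich cells, a log2 ratio of -0.21 (-0.29 to -0.12), and Tcf7l1 gave 31.8 and 36.8 CPM and 0.21 (0.08 to 0.35), while Bcl9l, a β-catenin cofactor, was at -0.17.

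Of 4 other feedback genes and targets, 2 had an interval above 0 and 1 below it, but these 3 (Apcdd1, Lef1 and Nkd1) are counted in the lists given before as well. Nkd1, the relative of Nkd2, gave 8.55 and 5.29 CPM, a log2 ratio of -0.69 (-1.02 to -0.37), and its level was lower in Nuc1 cells of cluster 0 (7.34 and 1.79 CPM), cluster 1 (13.7 and 3.84 CPM) and cluster 2 (5.21 and 1.59 CPM). Tnfrsf19 gave 22.0 and 23.7 CPM over collagen-rich cells and was lower in Nuc1 cells of the same 3 clusters. In the WT library Axin2 had its highest CPM in cluster 8, on 17 UMIs, but could not be told apart there from cluster 1 beyond counting error. Nkd1 stood in cluster 8 at 61.8 and 25.4 CPM and Tnfrsf19 at 30.9 and 139.7 CPM.

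The genes whose pattern over 15 pairs of cluster and library was most like a member's are given with Pearson's r of log2(CPM + 1) over 10582 genes. These pairs share libraries, depth and cell mix, so r is a description. Rspo3 was nearest to Cpxm2 (0.97), Shisa3 (0.96) and Clec11a (0.96), leading genes of cluster 0, and Rspo1 to Six2 (0.97), Ctif (0.94) and Def6 (0.91). Sfrp1 was nearest to Med16 (0.96), Atp6ap1 (0.90) and Kcnj13 (0.89), Sfrp2 to Sh3bgr (0.96), Acbd5 (0.95) and Mxi1 (0.94), and Sfrp4 to Pdlim5 (0.98), Akr1c14 (0.97) and Igfbp6 (0.97). Dkk3 was nearest to Mfsd3 (0.97), Smo (0.96) and Ctbs (0.95), and Dkk2 to Arhgap17 (0.91), Srpx (0.88) and Ccn2 (0.87). Nkd2 was nearest to Xylt2 (0.96), Man2a1 (0.96) and Ccdc125 (0.95). For Wif1 (Ctdsp1 0.90, Kctd6 0.84, Zfp46 0.84) and Axin2 (Slc30a10 0.87, Tmem37 0.74, Slc16a11 0.74) the likeness was lower. Among the members themselves r was 0.93 for Rspo3 and Sfrp4, 0.87 for Sfrp4 and Nkd2 and 0.82 for Rspo1 and Nkd2, and -0.86 for Sfrp2 and Nkd2.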

How the data were processed

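Droplet-based 3′ libraries of optic nerve cultures were made by the authors, 1 per genotype (WT, Nuc1), and processed with Cell Ranger 3.1.0 and STAR 2.7 per the submitters' processing notes, which also name Seurat 3.1.0 and 3.1.1. The genome build is not given in the sources used here. The deposited values are raw counts of UMIs per gene and barcode, 34517542 over 2107 WT barcodes and 35794685 over 1929 Nuc1 barcodes. No normalization had been applied, and columns of other samples numbered 0.

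A cell was kept if it had 500 genes or more and no more than 20% of its UMIs from mitochondrial genes. Doublet calls of Scrublet (scanpy 1.11.5), 7 among 1968 WT cells (0.356%) and 13 among 1793 Nuc1 cells (0.725%), were left out. The share is below the expected rate of 2%, so doublets can remain. Libraries were integrated by anchors on 2000 variable genes without Wnt genes, and clustered on 30 principal components at resolution 0.5 (Seurat 5.3.0, R 4.3.3). Collagen-rich means at least 4000 CPM of summed fibroblast markers, a threshold set after the data were seen. Cluster 8, with 2785 CPM in WT and 2517 CPM in Nuc1 cells and 1.22% and 1.74% of cells, fell below it. Cluster 7 is given no name here.

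UMIs were summed per cluster and library. Genes with at least 100 UMIs over both groups entered counts of 2-fold differences, with 0.5 UMIs added to sums for ratios over all genes. A sum of 0 allows up to 3 counts. Members and lists were chosen with earlier results of these data known. The genes named are the 10 members, the 3 of highest CPM in a cluster per pathway list among those with at least 100 UMIs in a cluster, and per member the 3 genes of most similar pattern, over pairs of at least 30 cells. Symbols listed more than once (99) were left out. Foxj1, Pecam1, Dct, Fzd10, Znrf3 and Axin1 were not analysed here. Intervals were tested on simulated Poisson sums, the model they assume, so uneven spread of UMIs over cells was not covered. Alternatives covered filters, doublets, integration, resolution, scaling (edgeR 4.0.16), thinning to 10000 UMIs (which leaves out 283 WT and 233 Nuc1 cells), the top cell and marker lists without clusters. Those without cluster 4 or without marker-rich astrocyte-like cells were added after seeing the data.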

Additional observations from a re-analysis of the deposited data

Results flagged for a closer look

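The log2 ratio of Nuc1 over WT for Sfrp4 had opposite signs in 2 collagen-rich clusters, 0.16 in cluster 0 and -1.0 in cluster 2. The ratio for Dkk3 had opposite signs in 2 cell classes, -0.50 in collagen-rich clusters and 1.42 in astrocyte-like cells. With 1 library per genotype neither difference was tested.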

How the results depend on the processing

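Over collagen-rich cells the log2 ratios of Nuc1 over WT kept their sign under all 15 alternatives for Rspo1 (-2.55 to -1.96), Rspo3 (-1.21 to -0.81), Sfrp1 (0.45 to 3.25), Dkk2 (-1.25 to -0.25), Dkk3 (-0.71 to -0.39), Nkd2 (-0.89 to -0.72), Axin2 (0.41 to 0.63) and Sfrp4 (-0.53 to -0.03). In astrocyte-like cells Dkk3 ranged from 0.77 to 1.64 and Sfrp2 from -2.05 to -1.26, while Nkd2 and Axin2, whose intervals include 0, changed sign under 1 and 2 alternatives. In Nuc1 cells the ratio of collagen-rich over astrocyte-like cells for Sfrp1 ran from -1.91 to 0.22. Counts of all 10 members past 2-fold moved as follows, and the cause was not tested. These counts keep members below the minimum of UMIs that was set for the earlier counts. In astrocyte-like cells these are, among the lower ones, Rspo3 (33 UMIs in WT and 29 in Nuc1 cells), Sfrp4 (36 and 51) and Dkk2 (19 and 19). With the minimum, 1 of 4 members was lower there. Shares of all genes under these alternatives were not computed, so the counts are descriptions. With clusters weighted equally, 1 member in place of 2 was lower and 0 in place of 1 higher in Nuc1 collagen-rich cells. In astrocyte-like cells 2 in place of 4 were lower in Nuc1 cells, both at a limit of 10% mitochondrial UMIs and without the cells rich in fibroblast markers. For collagen-rich against astrocyte-like cells, 1 in place of 2 was lower with both libraries summed, and among Nuc1 cells 2 in place of 1 at the limit of 10% mitochondrial UMIs and also without cluster 4. The members highest in a collagen-rich cluster in both libraries numbered 5 by CPM, also after thinning, and 7 by share of cells (6 after thinning). The matching share of all genes was not computed. No paired analysis was possible because there is 1 library per genotype and the labels carry no replicate numbers. Low counts limit Rspo1, Wif1, Dkk2 and Sfrp2 in most clusters, and clusters 6 to 9 hold few cells in at least 1 library.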
